A study of Mus musculus with 10 samples.

Results

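Primed epiblast transcription and signal genes were described as a group of 5: Otx2, Pou3f1, Fgf5, Foxd3 and Sall2. They were taken by symbol from the deposited RNA-Seq tables, where all 5 were found among 22878 genes, with 6 of the 29257 listed transcripts. The libraries came from polyA RNA of R1 mouse embryonic stem (ES) cells and of the embryoid bodies (EBs) grown from them, at the ES stage and at 24 h, day 6, day 10 and day 14 of EB culture. The cells carried an shRNA against Smyd5 (shSmyd5), a gene of the SET and MYND domain family of methyltransferases, or an shRNA against luciferase (shLuc, the control). Both shRNAs were delivered by lentivirus in the pGreenPuro vector and selected with puromycin, so the controls share vector and selection. The study used several Smyd5 shRNAs in its phenotypic work, and the labels do not say which of them was sequenced here. The sample annotation lists 1.5 µM of a GSK3 inhibitor for all 10 libraries. The paper describes ES culture with LIF on irradiated feeder cells. It names gelatin with this inhibitor, to remove feeder cells, for its ChIP experiments, and does not say which culture served RNA-Seq. EBs were made in low-attachment dishes without LIF. There was 1 library per shRNA and stage, 10 in all, so no difference between shSmyd5 and shLuc at a single stage has a replicate check.

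Levels are given as RPKM, the reads of a transcript scaled to its length and to the library. A fold is the log2 of RPKM plus 0.1 in shSmyd5 less the same in shLuc, so a positive one means higher in shSmyd5. The 95% interval beside it is an exact binomial (Clopper-Pearson) interval on the read numbers. It reflects error of counting alone and compares the 2 libraries, not the conditions. Reads in genes ranged from 3895537 in shLuc ES cells to 43377815 in shLuc EBs of day 6. Smyd5 had an RPKM of 4.51, 0.89, 0.49, 9.14 and 6.88 in shSmyd5 libraries of ES cells, 24 h, day 6, day 10 and day 14, against 29.7, 10.7, 15.4, 25.0 and 13.1 in shLuc. The knockdown was thus deepest at day 6, at a log2 fold of -4.71, and shallowest at day 14, at -0.92. In ES cells all 8 ES cell markers searched reached an RPKM of 3 in at least 1 library, and the 8 fibroblast (feeder) markers summed to an RPKM of 3.89 in shSmyd5 and 4.82 in shLuc.

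Naive ES cells resemble the epiblast before implantation. When they leave that state they pass through formative and primed states that resemble the epiblast after implantation, before they commit to a germ layer. Otx2 encodes a homeodomain factor that directs OCT4 to new enhancers during this exit and later patterns the anterior neural plate. Pou3f1 (also called Oct6) encodes a POU domain factor of the primed epiblast and early neural fate, Foxd3 a forkhead factor of pluripotent cells and later of neural crest, and Sall2 a zinc finger factor of the Spalt family. Fgf5 encodes a secreted fibroblast growth factor that is the classical marker of the epiblast after implantation. In EBs, cells of the epiblast, endoderm and later lineages lie side by side. In such bulk samples fewer cells of a type and less RNA per cell cannot be told apart.

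The members differ in base composition, which is shown first because it moved with several of the folds. Foxd3 (chr4:99322990-99325362, plus strand) and Pou3f1 (chr4:124334896-124337899, plus strand) are single-exon genes in the GENCODE annotation of NCBIM37 (mm9). Their transcripts have a GC content of 64.2% and 61.5%, above that of 99.2% and 97.4% of the genes with a known sequence. Otx2 (chr14:49277354-49287319, minus strand) has 49.5%, Fgf5 (chr5:98683203-98706049, plus strand, 3 exons) 47.0% and Sall2 (chr14:52930847-52948437, minus strand) 53.2%. The first 96 coding bases of 4 members, from the start codon and all within the first coding exon, show the contrast, with each CG dinucleotide in capitals. They lie at chr4:99323316-99323411 for Foxd3, chr4:124334950-124335045 for Pou3f1, chr14:49282120-49282215 for Otx2 and chr5:98683431-98683526 for Fgf5, all on mm9.
Foxd3: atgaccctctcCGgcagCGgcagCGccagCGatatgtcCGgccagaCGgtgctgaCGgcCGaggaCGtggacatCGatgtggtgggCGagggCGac
Pou3f1: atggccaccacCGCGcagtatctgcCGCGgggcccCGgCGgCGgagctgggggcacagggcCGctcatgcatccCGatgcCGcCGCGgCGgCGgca
Otx2: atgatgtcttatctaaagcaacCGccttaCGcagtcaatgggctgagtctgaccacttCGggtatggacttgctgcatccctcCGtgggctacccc
Fgf5: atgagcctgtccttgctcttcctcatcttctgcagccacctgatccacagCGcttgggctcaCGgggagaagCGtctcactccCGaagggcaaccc
There were 12 CG dinucleotides in these bases of Foxd3 and 14 in those of Pou3f1, against 4 each in Otx2 and Fgf5. Over the whole coding sequence GC content was 72.1% in Foxd3 and 73.0% in Pou3f1, against 52.2% in Otx2 and 54.3% in Fgf5.

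The regions before the transcription starts also differed in GC content, but in another order than the transcripts, with Fgf5 the highest. RefSeq promoter windows on GRCm38.p6 were at hand for 4 of the members, not for Pou3f1. The 250 bases before the start are printed for Otx2 (the most upstream of 4 listed starts, chr14:48667645-48667894, minus strand), Fgf5 (chr5:98253934-98254183, plus strand) and Foxd3 (chr4:99656049-99656298, plus strand). Capitals mark matches to the motifs searched on both strands of the 300-base window around each start.
Otx2: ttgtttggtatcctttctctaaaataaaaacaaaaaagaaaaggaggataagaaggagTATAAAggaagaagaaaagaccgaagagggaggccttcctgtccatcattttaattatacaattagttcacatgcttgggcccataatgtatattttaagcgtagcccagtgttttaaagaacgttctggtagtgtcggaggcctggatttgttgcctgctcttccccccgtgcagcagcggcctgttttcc
Fgf5: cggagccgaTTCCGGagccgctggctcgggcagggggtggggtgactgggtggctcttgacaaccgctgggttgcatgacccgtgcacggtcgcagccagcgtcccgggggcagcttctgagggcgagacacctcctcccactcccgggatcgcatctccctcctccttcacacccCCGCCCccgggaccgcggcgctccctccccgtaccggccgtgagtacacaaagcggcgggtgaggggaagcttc
Foxd3: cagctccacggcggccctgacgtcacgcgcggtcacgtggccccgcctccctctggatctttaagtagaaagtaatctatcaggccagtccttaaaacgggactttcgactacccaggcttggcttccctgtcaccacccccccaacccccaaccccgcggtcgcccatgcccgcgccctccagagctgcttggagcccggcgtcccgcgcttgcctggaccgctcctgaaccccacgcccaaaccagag
GC content was 42% in the Otx2 stretch, with 6 CpG, 70.8% with 24 CpG in Fgf5, and 65.6% with 21 CpG in Foxd3, against medians of 52.4% and 6 CpG over 32851 windows. The stretches before the other listed Otx2 starts had 49.2%, 48.4% and 53.6%, with 8, 14 and 9 CpG. The Sall2 stretch before its more upstream start (chr14:52328671-52328920, minus strand) had 28% and 0 CpG, and that before its second listed start 64.4% and 6. The letters searched were TAATCC for OTX factors, ATGCAAA for the core of the POU octamer, CTTTGA for LEF/TCF, CCGGAA for ETS, GGGCGG for SP/KLF and TATAAA for a TATA box. These occur in 7.06%, 4.63%, 16.0%, 14.9%, 35.7% and 13.6% of all windows. In the printed stretches TATAAA begins at position -192 from the Otx2 start, and in Fgf5 an ETS match begins at -241 and an SP/KLF match at -74. The Foxd3 stretch held no match to these letters, and the only OTX match among the members' windows lay before the third Otx2 start.

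All 5 members changed with the stage of differentiation, each with its own course. The edgeR F test of the stage, with the shSmyd5 and shLuc libraries of a stage as its 2 libraries, gave an adjusted p of 6.56e-06 for Fgf5, 1.54e-05 for Foxd3, 8.52e-05 for Sall2, 0.000284 for Pou3f1 and 0.00124 for Otx2. It called 65.3% of 12277 genes, so a call of this kind is common here. Otx2, Pou3f1 and Fgf5 were highest at day 6 in both shRNAs, Sall2 had its highest level at day 10 in both, and Foxd3 was highest in ES cells and 24 h EBs.

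**Figure D1:**
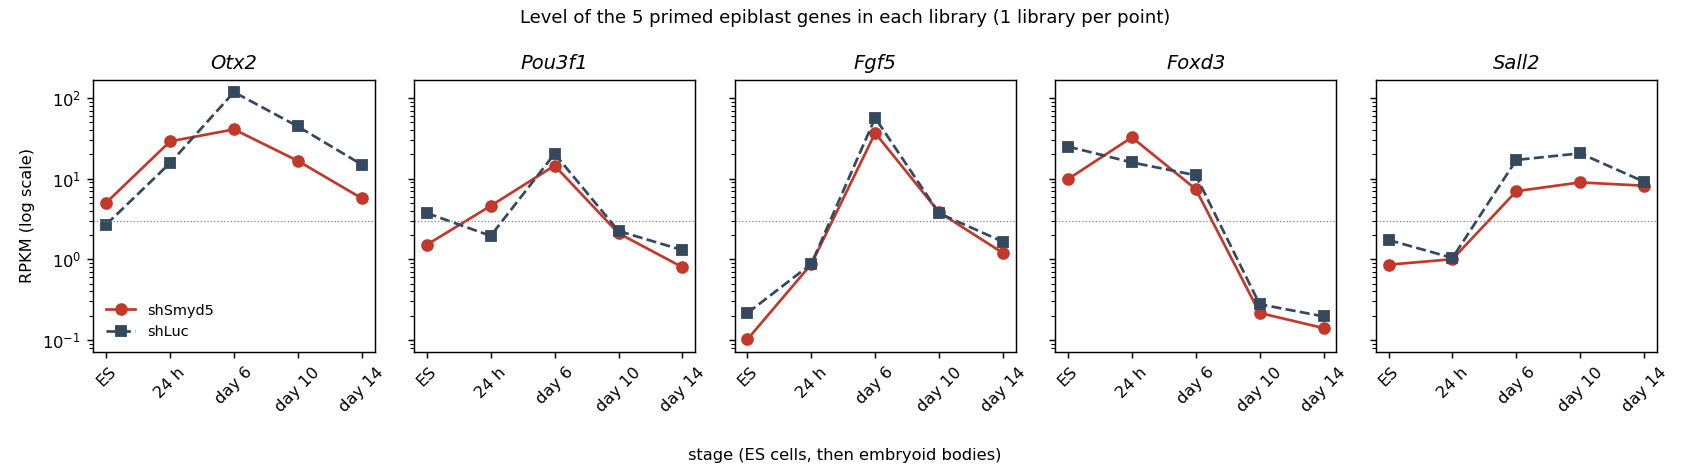
RPKM (log scale) of each member by stage, with shSmyd5 as red circles and solid lines and shLuc as dark squares and dashed lines, 1 library per point. The dotted line is an RPKM of 3. Fgf5 has a single peak at day 6 (36.9 in shSmyd5 and 56.9 in shLuc), and the Otx2 lines cross between 24 h and day 6.

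Otx2, the homeodomain factor, was higher in shSmyd5 at the first stages and lower from day 6 on. Its RPKM was 5.04, 29.1, 41.0, 16.6 and 5.71 in shSmyd5 ES cells and EBs of 24 h, day 6, day 10 and day 14, against 2.70, 15.7, 118.9, 44.5 and 15.0 in shLuc. The shSmyd5 library was the higher one in ES cells and at 24 h and the lower one at the other 3 stages. In ES cells the log2 fold was 0.88 (0.32 to 1.48), on 343 reads in shSmyd5 and 26 in shLuc, and at 24 h it was 0.89 (0.75 to 1.03). At day 6 it was -1.53 (-1.58 to -1.49), 2.90-fold lower in shSmyd5. The folds of day 10 and day 14 were -1.41 (-1.56 to -1.27) and -1.37 (-1.55 to -1.21). The medians of all genes at these stages were -0.05, 0.14, -0.27, -0.03 and 0.02, and relative to them Otx2 had 0.92, 0.75, -1.27, -1.39 and -1.39. The sign therefore held at each stage.

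The course of Otx2 over the stages also differed in extent between the shRNAs. From ES cells to 24 h it increased 5.68-fold in shSmyd5 and 5.63-fold in shLuc, and the edgeR change was 2.83 ± 0.61 (log2, SE) with an adjusted p of 0.00951. Between 24 h and day 6 it increased 1.41-fold in shSmyd5 and 7.54-fold in shLuc. The edgeR change was 1.41 ± 0.58 (adjusted p = 0.110), which did not pass the threshold of 0.05, though it passed with DESeq2 (0.0465). The change between day 6 and day 10, -1.77 ± 0.57, missed it too (adjusted p = 0.0549, and 0.00886 with DESeq2). Of the genes tested, 15.8% were called higher and 14.2% lower at 24 h than in ES cells, 12.7% and 7.04% at day 6 than at 24 h, and 8.6% and 9.46% at day 10 than at day 6.

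Sall2, the Spalt family factor, was the member whose RPKM was lower in shSmyd5 at every stage, though at 24 h not beyond counting error. It had an RPKM of 0.86, 1.002, 7.003, 9.002 and 8.19 in shSmyd5 libraries from ES cells to day 14, against 1.74, 1.04, 17.1, 20.7 and 9.16 in shLuc. Both shRNAs held low levels until 24 h and higher ones from day 6. Within shLuc the level at day 14 was 2.24-fold below that of day 10, within shSmyd5 1.10-fold, and the libraries of a stage were closest at 24 h and day 14. Day 6 gave a log2 fold of -1.28 (-1.35 to -1.21) and day 10 one of -1.19 (-1.31 to -1.07), or -1.01 and -1.16 relative to the median of all genes. At 24 h it was -0.05 (-0.37 to 0.27), not distinguishable at this depth, and at day 14 -0.16 (-0.26 to -0.06). Its second listed transcript gave -1.27 and -1.16 at days 6 and 10. From 24 h to day 6 Sall2 rose by 3.20 ± 0.37 (adjusted p = 0.000431), and between day 6 and day 10 it changed by -0.10 ± 0.33 (adjusted p = 0.851).

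Fgf5, the secreted ligand, had the sharpest peak of the 5. Its RPKM was 0.10, 0.87, 36.9, 3.84 and 1.20 in shSmyd5 from ES cells to day 14, against 0.21, 0.87, 56.9, 3.73 and 1.65 in shLuc. The ES cell values rest on 10 reads in shSmyd5 and 3 in shLuc. Fgf5 rose by 3.13 ± 0.46 between ES cells and 24 h (adjusted p = 0.00372) and by 5.51 ± 0.39 between 24 h and day 6 (adjusted p = 0.000116), then fell by 4.02 ± 0.36 to day 10 (adjusted p = 0.000686). The increase from 24 h to day 6 was 38.2-fold in shSmyd5 and 58.5-fold in shLuc. Between the shRNAs the fold at day 6 was -0.62 (-0.67 to -0.58), under 2-fold and -0.36 relative to the median of all genes. At 24 h and day 10 the intervals of its folds, -0.01 (-0.50 to 0.49) and 0.04 (-0.25 to 0.32), spanned 0, and at day 14 the fold was -0.43 (-0.76 to -0.10).

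Pou3f1, the POU domain factor, changed sides between ES cells and 24 h. It had an RPKM of 1.51, 4.60, 14.5, 2.10 and 0.80 in shSmyd5 from ES cells to day 14, against 3.75, 1.95, 20.4, 2.25 and 1.30 in shLuc. In ES cells the log2 fold was -1.25 (-1.66 to -0.83), on 180 reads in shSmyd5 and 63 in shLuc, at 24 h 1.19 (0.91 to 1.48) and at day 6 -0.49 (-0.56 to -0.42). Freed of the trend on GC content and length that is described with the base composition of all genes, the ES cell and 24 h folds were -0.23 and 0.44, both under 2-fold. The day 6 fold was -0.29 freed of that trend, and -0.22 against the all-gene median. The day 10 interval, -0.43 to 0.25 around -0.09, spanned 0. Between ES cells and 24 h Pou3f1 increased 2.91-fold within shSmyd5 and decreased 1.87-fold within shLuc, and the edgeR change was not called (0.84 ± 0.52, adjusted p = 0.225). From 24 h to day 6 it rose by 2.18 ± 0.51 (adjusted p = 0.0147), and from day 6 to day 10 it fell by 3.42 ± 0.54 (adjusted p = 0.00481).

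Foxd3, the forkhead factor, followed the same alternation at a higher level and was nearly lost later. It had an RPKM of 9.88, 32.6, 7.43, 0.22 and 0.14 in shSmyd5 from ES cells to day 14, against 25.1, 15.9, 11.0, 0.28 and 0.20 in shLuc. The shSmyd5 library was below shLuc in ES cells, above it at 24 h and below it again at day 6. The log2 folds were -1.33 (-1.52 to -1.15), 1.03 (0.91 to 1.15) and -0.57 (-0.67 to -0.46), and without the same trend they were -0.15, 0.21 and -0.42. Set against the all-gene median, the 24 h fold was 0.89 and the day 6 fold -0.30. At day 10 the libraries held 8 reads in shSmyd5 and 20 in shLuc, at day 14 13 and 18, and both intervals spanned 0. Foxd3 fell by 1.64 ± 0.45 between 24 h and day 6 (edgeR adjusted p = 0.0279, but 0.106 with limma) and by 5.63 ± 0.57 between day 6 and day 10 (edgeR adjusted p = 0.000962). Within shSmyd5 it increased 3.28-fold from ES cells to 24 h, and within shLuc it decreased 1.57-fold.

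**Figure D2:**
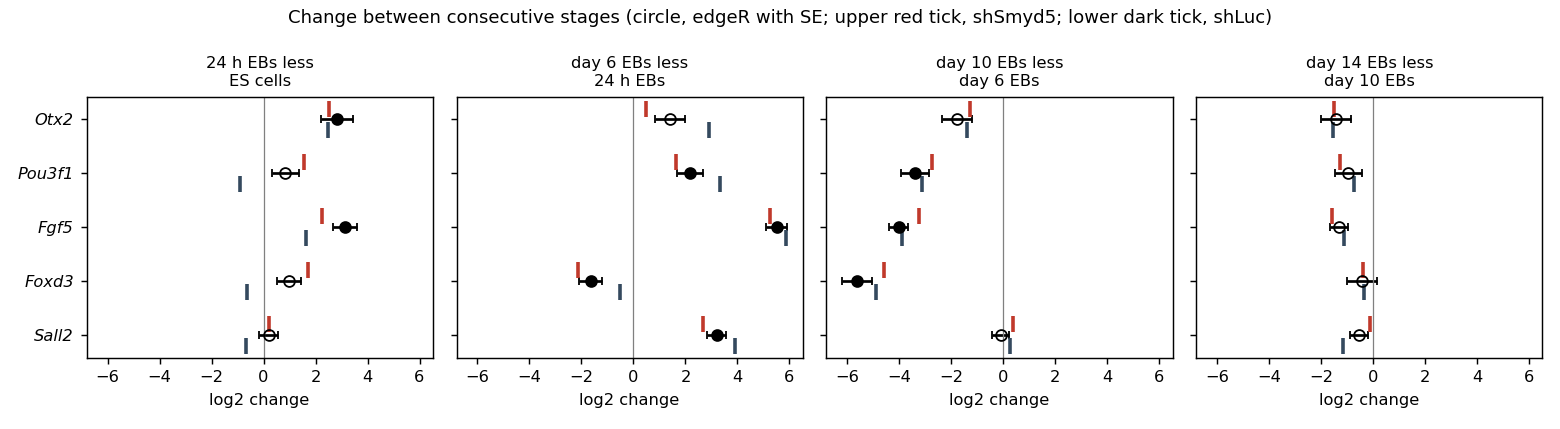
Log2 change of each member between consecutive stages. Circles with bars are the edgeR change and its SE over both shRNAs, filled where the adjusted p is under 0.05, and ticks are the change of log2 RPKM plus 0.1 within shSmyd5 (upper, red) and within shLuc (lower, dark). Pou3f1 and Foxd3 have ticks on opposite sides of 0 in the first panel, and no circle is filled in the last.

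In the order of their levels over the stages, several neighbours could not be told apart. For Otx2 the order by mean log2 level was day 6, day 10, 24 h, day 14 and ES cells, and 24 h exceeded day 14 by 1.79 ± 0.59 (adjusted p = 0.0280), while day 10 and 24 h differed by 0.36 ± 0.57 (adjusted p = 0.628). For Fgf5 day 6 stood above day 10 and 24 h above ES cells, while days 10 and 14 differed by 1.32 ± 0.33 (adjusted p = 0.248) and day 14 and 24 h by 0.16 ± 0.34 (adjusted p = 0.719). For Sall2 day 14 exceeded ES cells by 2.75 ± 0.37 (adjusted p = 0.000291), while days 10, 6 and 14 at the top did not differ beyond their spread. For Pou3f1 only day 6 stood apart from its neighbour, and for Foxd3 only day 6 from day 10. None of the members was called between day 10 and day 14, where edgeR called 0.0733% of genes as higher and 0% as lower. There, 2 members had an unadjusted p under 0.05 with edgeR, as did 930 of 12277 genes, and DESeq2 and limma called no member. Contrasts of stages that do not follow each other were added after the data were seen.

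Set against the background of all genes, 2-fold differences between shSmyd5 and shLuc were counted where at least 1 of the libraries reached an RPKM of 3. In ES cells 3 members had that level, 0 were at least 2-fold higher and 2, Pou3f1 and Foxd3, were lower, against 4.52% and 11.3% of 9329 genes. At 24 h 3 had it, and 2, Pou3f1 and Foxd3, were higher and 0 lower, against 13% and 4.26% of 8354 genes. At day 6 all 5 had it, and 0 were higher and 2, Otx2 and Sall2, were lower, against 8.18% and 19.4% of 9461 genes. At day 10 Otx2 and Sall2 were lower of 3 with that level and 0 were higher, against 3.15% higher and 6.51% lower of 10576 genes. At day 14 Otx2 was lower of 2 and 0 were higher, against 3.17% higher and 4.07% lower of 10476. The median fold of the 5 members was -0.94, 0.89, -0.62, -0.25 and -0.43 from ES cells to day 14.

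**Figure D3:**
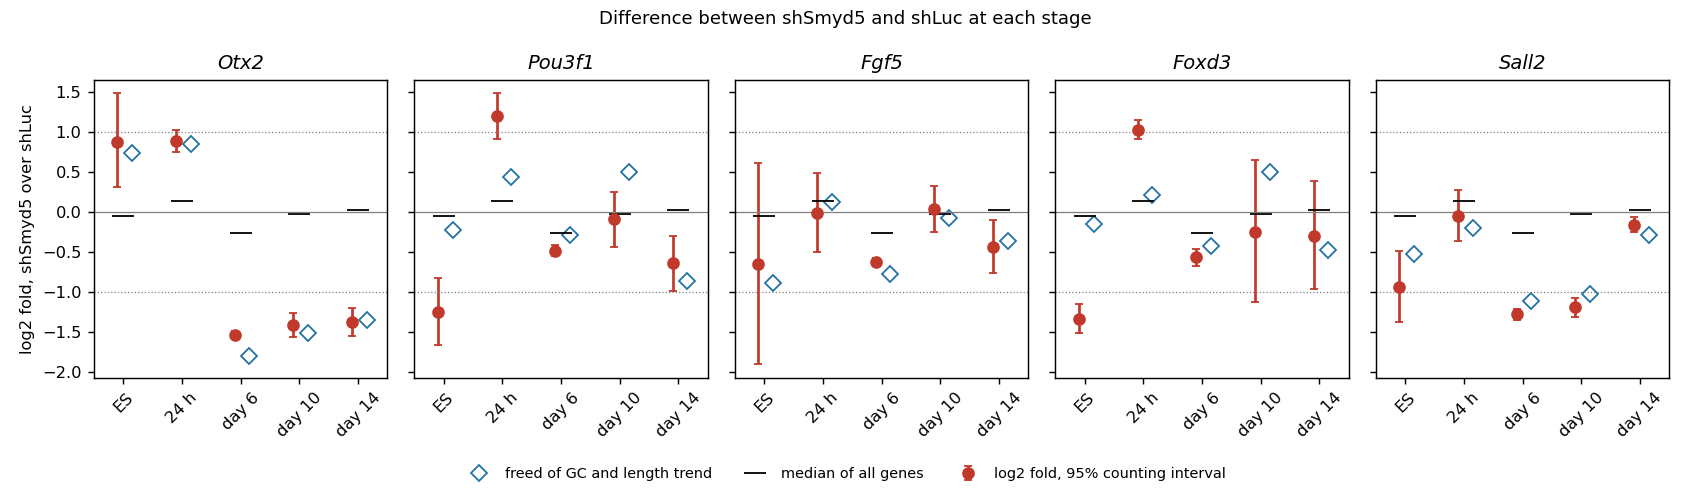
Log2 fold of each member at each stage (red circles, with the 95% counting interval), the fold freed of the trend on GC content and length (open blue diamonds) and the median fold of all genes (black dashes). Dotted lines mark 2-fold. The Otx2 points lie near 0.9 until 24 h and below -1 from day 6, with the diamonds beside them. The ES cell and 24 h points of Pou3f1 and Foxd3 lie past 2-fold and their diamonds do not.

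Base composition moved with the folds in ES cells and at 24 h. Ranks of fold and GC content correlated over genes (no independent replicates of each other) at -0.684 in ES cells and 0.576 at 24 h, and at -0.024, -0.386 and 0.324 at days 6, 10 and 14. A spline trend on GC content and length, which accounted for 53.6% of the variance of folds in ES cells and 28.4% at 24 h, gave -1.19 and 0.82 for a gene like Foxd3 and -1.03 and 0.75 for a gene like Pou3f1. Freed of it, Foxd3 and Pou3f1 were under 2-fold, so that 0 members passed 2-fold at either stage. Without the trend Otx2 had 0.74, 0.85, -1.80, -1.51 and -1.36 over the stages. It was farther apart than with it at day 6 (-1.53 with it) and day 10 (-1.41), and slightly less so at the other stages. Sall2 had -1.12 at day 6 and -1.03 at day 10, still past 2-fold.

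**Figure D4:**
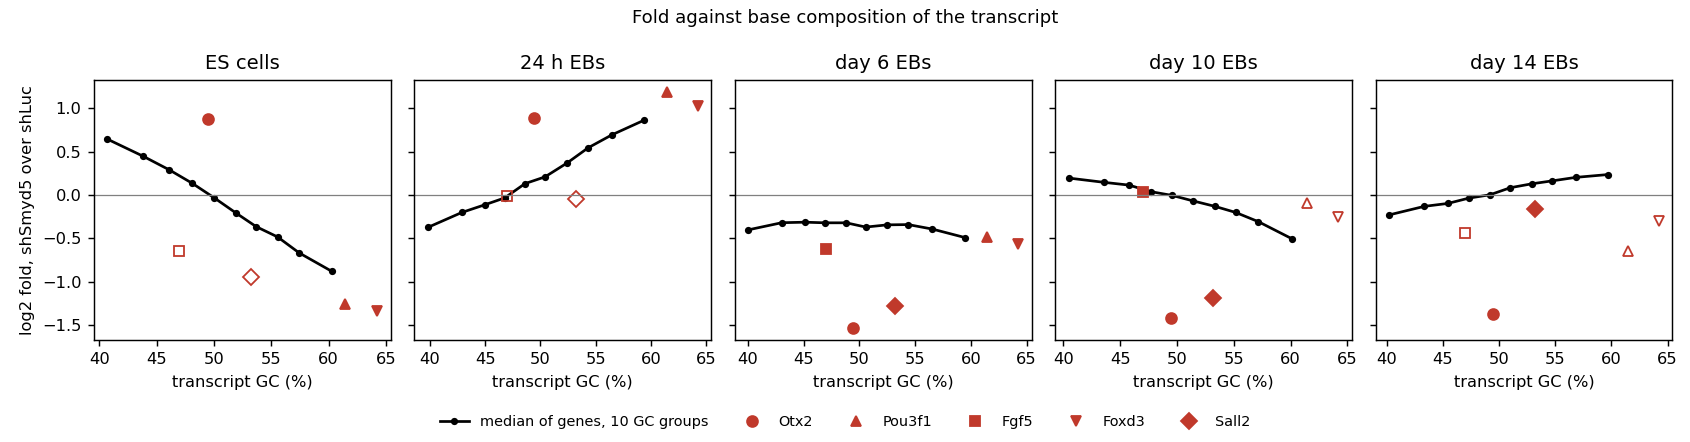
Log2 fold (shSmyd5 over shLuc) against the GC content of the transcript (%) at each stage. The black line joins the medians of 10 groups of genes by GC content, and red symbols are the members, open where the RPKM is under 3 in both libraries. Foxd3 (64.2% GC) and Pou3f1 (61.5%) continue the line in ES cells and at 24 h, while Otx2 (49.5%) lies off it at every stage.

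An effect of the knockdown shared by all 5 stages was tested with edgeR, with the stage as a block. Sall2 had -0.68 ± 0.22 (unadjusted p = 0.0102, adjusted p = 0.278) and was lower in shSmyd5 at 5 of 5 stages, at 4 of them with a counting interval wholly under 0. Otx2 had -0.52 ± 0.38 (adjusted p = 0.625), lower at 3 of 5 stages, and Fgf5, Foxd3 and Pou3f1 had -0.26, -0.26 and -0.20, with adjusted p of 0.691, 0.786 and 0.847. By sign alone each of these 3 was lower at 4 of 5 stages, and with a counting interval wholly under 0 Fgf5 and Foxd3 were lower at 2 and Pou3f1 at 3. The test called 0 of 12277 genes, or 0% in each direction. At an unadjusted p under 0.05 there were 1425 genes, Sall2 the 1 member among them. DESeq2 called 333 genes and limma 0, no member in either. Effects that change sign with the stage, as the folds of Otx2, Pou3f1 and Foxd3 do, enter the residual spread of this test, and Smyd5 itself, at -2.63 ± 0.51, had an adjusted p of 0.107.

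Other genes of the primed and formative epiblast were followed in a list of 22. In ES cells 18 had an RPKM of at least 3, of which 0 were at least 2-fold higher in shSmyd5 and 2 lower. At 24 h 9 of 17 were higher and 0 lower. At day 6, day 10 and day 14 9 of 20, 9 of 20 and 9 of 16 were lower and 1, Fst, was higher. Over all genes at that level 4.52%, 13%, 8.18%, 3.15% and 3.17% were higher from ES cells to day 14. Lower were 11.3%, 4.26%, 19.4%, 6.51% and 4.07%. The median fold of the list, over genes with an RPKM of at least 1, was -0.44, 0.83, -0.72, -0.59 and -1.003 over the stages. Over all genes of that minimum it was -0.07, 0.17, -0.37, -0.08 and -0.01. With that trend on GC and length taken out, the list had medians of -0.02, 0.61, -0.67, -0.39 and -0.93. Of the 9 genes higher at 24 h, 5 were still past 2-fold without the trend, and Etv4, Nodal, Utf1 and Pim2 were not. Of the 2 lower in ES cells 1 was still past 2-fold, and of the 9 lower at day 6, day 10 and day 14 there were 7, 7 and 8. Fst was past 2-fold without the trend at days 10 and 14 and not at day 6. Over all genes, 557 were past 2-fold higher at 24 h without the trend and 1087 with it. Genes lower without and with it numbered 269 and 1051 in ES cells, 1878 and 1834 at day 6, 385 and 689 at day 10, and 383 and 426 at day 14. The trend is known only for genes of known GC content.

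At 24 h the genes that were higher included Lef1, a transcription factor of Wnt signaling, with an RPKM of 26.5 in shSmyd5 and 1.14 in shLuc (4.42, 4.06 to 4.80). The DNA methyltransferase genes Dnmt3a (32.2 in shSmyd5 and 14.3 in shLuc) and Dnmt3b (33.1 and 13.8) were higher at the same stage. Nodal, a TGF-beta family ligand, had 15.3 in shSmyd5 and 6.76 in shLuc, a fold of 1.16, or 0.63 without the GC and length trend. At day 6 Dnmt3b had 58.0 in shSmyd5 and 198.3 in shLuc (-1.77, -1.80 to -1.75). Lef1 had 6.09 in shSmyd5 and 16.9 in shLuc there. Dnmt3b and Lef1 thus crossed over between 24 h and day 6, as Otx2 did. At the other stages Dnmt3b was unlike Otx2, with folds of -0.37 in ES cells, 0.24 at day 10 and 0.22 at day 14. For Nodal the day 6 fold was -0.13, with an interval that spanned 0. The 9 lower genes of day 10 were Sox3 (0.50 in shSmyd5 and 10.1 in shLuc), Zic2 (5.35 and 29.7), Otx1 (1.04 and 12.1), Sox4, Sox11, Zic5, Fgf8, Fgf15 and Cdh2. Fst, which encodes the activin antagonist follistatin, went the other way, with 50.1 in shSmyd5 and 15.4 in shLuc. Most of the 9 lower genes did not share the course of Fgf5, which fell in shLuc from 56.9 at day 6 to 3.73 at day 10. Within shLuc, Sox3 (3.78 to 10.1), Otx1 (0.31 to 12.1), Sox4, Sox11, Fgf8, Fgf15 and Cdh2 rose between these stages. Zic2 (101.1 to 29.7) and Zic5 fell.

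**Figure D5:**
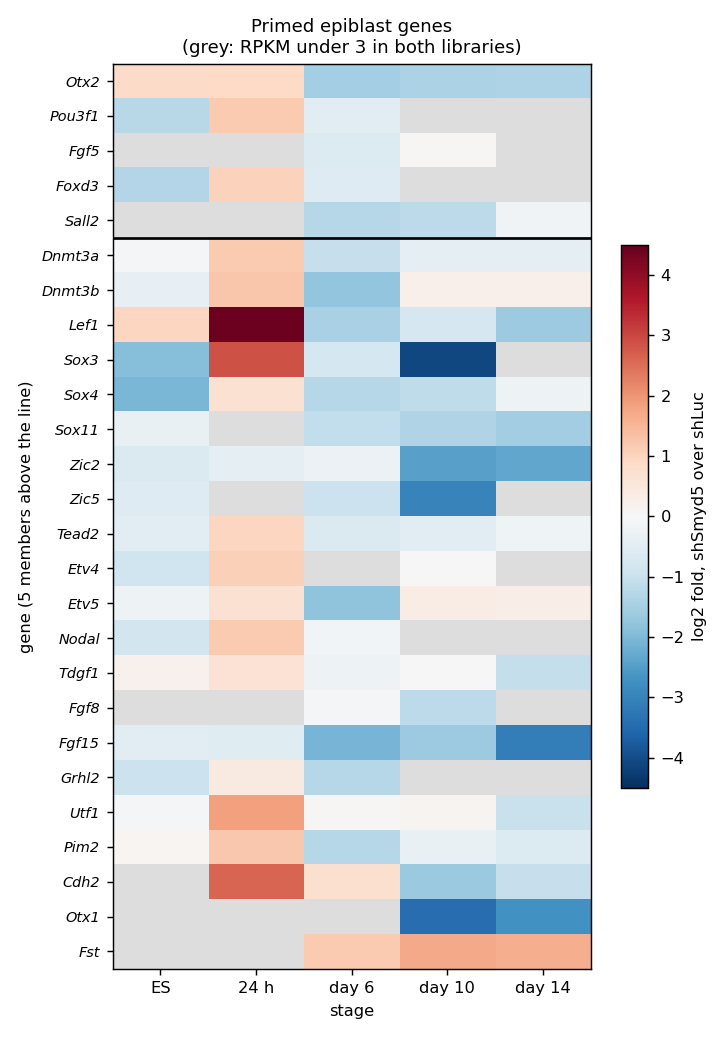
Log2 fold (shSmyd5 over shLuc, colour) at each stage for the 5 members, above the line, and 21 of the 22 other primed and formative epiblast genes. Red is higher and blue lower in shSmyd5, and grey is an RPKM under 3 in both libraries. At 24 h 9 of these are at least 2-fold higher and 0 lower, beside 13% and 4.26% of all genes. At days 6 and 10 9 are lower at each stage, beside 19.4% and 6.51% of all genes.

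In the edgeR test of the shared knockdown effect 0 of the 22 were called. With the stage, 4 (18.2%) rose and 1 (4.55%) fell between ES cells and 24 h, beside 15.8% and 14.2% of all genes. Between 24 h and day 6 7 (31.8%) rose and 2 (9.09%) fell, beside 12.7% and 7.04%, and between day 6 and day 10 0 rose and 7 (31.8%) fell, beside 8.6% and 9.46%. Those that fell with Fgf5, Pou3f1 and Foxd3 at that step included Dnmt3b, Nodal, Pim2, Tdgf1, Utf1 and Zic2. Examples are Tdgf1, the Nodal co-receptor, at -4.70 ± 0.45 (adjusted p = 0.000686), and Utf1, a chromatin factor of pluripotent cells, at -4.46 ± 0.57 (adjusted p = 0.00286).

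The family relatives of the members and the receptors of Fgf5 had folds of their own. Of 13 relatives 5 reached an RPKM of 3 at day 10 and 5 at day 14, and at both stages Otx1, Pou3f2 and Pou3f3 were at least 2-fold lower in shSmyd5 and 0 higher, beside the 6.51% and 4.07% of all genes that were lower. Relatives under that level were not counted. Pou3f3 had an RPKM of 0.25 in shSmyd5 and 5.41 in shLuc at day 10, and Pou3f2 had 0.46 in shSmyd5 and 5.86 in shLuc at day 14. Sall1, a relative of Sall2, had 25.9 in shSmyd5 and 71.1 in shLuc at day 6 (-1.45, -1.49 to -1.42), and at day 10 it had 20.2 and 21.3. Among 10 FGF receptors and feedback genes, 0 were 2-fold apart in ES cells. At 24 h 2 of 7 with an RPKM of 3 or more were higher, Spry4 (46.6 in shSmyd5 against 20.2 in shLuc) and Dusp6 (42.7 against 18.7), which dampen FGF signaling, beside 13% of all genes. At day 6 the feedback gene Spry1 was higher (54.8 in shSmyd5 and 25.2 in shLuc) and Spred1 lower (7.63 and 16.5). That was 1 of 8 in each direction, beside 8.18% of all genes higher and 19.4% lower. The receptor gene Fgfr1 had 18.3 in shSmyd5 and 47.7 in shLuc at day 10 (-1.38, -1.46 to -1.29) and 9.71 and 19.6 at day 14. At day 10 it was the 1 gene of 10 at least 2-fold lower, and 0 were higher, beside 6.51% and 3.15% of all genes. Fgfr4, another receptor gene, was higher at day 14, with 8.45 in shSmyd5 and 3.51 in shLuc (1.24, 1.08 to 1.40). The list thus held 1 gene of 10 in each direction at that stage, beside 3.17% of all genes higher and 4.07% lower. No gene of these lists was called in the shared test.

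Markers of other cell types differed between the shRNAs at the late stages, and endoderm markers from 24 h. Otx2, Sall2 and Pou3f1 are also expressed in neural cells, Foxd3 in neural crest, and Otx2 in visceral endoderm. Of 8 neural markers found in the tables, 4 of 4 with an RPKM of at least 3 were at least 2-fold lower in shSmyd5 at day 6, 7 of 7 at day 10 and 6 of 7 at day 14. Over all genes at that level, 19.4%, 6.51% and 4.07% were lower at these stages, and 8.18%, 3.15% and 3.17% higher. The summed RPKM of the neural markers was 9.17 in shSmyd5 and 35.1 in shLuc at day 6, and 7.56 and 108.8 at day 10, with no marker at 0 reads on days 10 and 14. Of 10 endoderm markers 8 of 9, 5 of 8 and 4 of 8 were higher at these stages and 0 lower. Freed of the trend on GC content and length, 6, 5 and 4 were at least 2-fold higher. At 24 h 2 of 3, Gata6 and Sox7, were already higher, beside 13% of all genes. The endoderm sum was 233.7 in shSmyd5 and 52.3 in shLuc at day 6. At day 10, where a single marker held most of the endoderm sum, it was 873.5 in shSmyd5 and 1026.5 in shLuc. The fibroblast markers, low until day 6, summed to 219.9 in shSmyd5 and 558.7 in shLuc at day 10. Of 14 naive pluripotency genes 10 were lower at day 6 and 2, Klf4 and Tbx3, higher, beside 19.4% and 8.18% of all genes. At day 10 1 of 10 with an RPKM of at least 3 was lower and 2, Klf4 and Klf5, were higher. At day 14 6 of 11 were lower and 1, Klf4, was higher. Of 8 neural crest markers, Snai2 (22.9 in shSmyd5 and 15.3 in shLuc) and Ets1 (11.5 and 12.2) held most of the sum at day 10, 43.4 in shSmyd5 and 43.0 in shLuc. Pax3 had 0.36 in shSmyd5 and 4.52 in shLuc there, and Tfap2b 0.12 and 2.19. At day 14 the neural crest sum was 42.8 in shSmyd5 and 69.8 in shLuc. Of 4 of these markers with an RPKM of at least 3 at day 14, Tfap2a and Tfap2b were at least 2-fold lower and 0 higher. The part of these cell types in the folds of Otx2, Sall2 and the other primed and formative epiblast genes was not tested.

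Among themselves the members fell into no single course. Over the 10 libraries, which share stages and shRNAs, Pearson's r of log2 RPKM plus 0.1 was 0.85 for Otx2 with Fgf5, 0.73 for Pou3f1 with Fgf5, 0.72 for Fgf5 with Sall2 and 0.66 for Otx2 with Pou3f1. It was -0.69 for Foxd3 with Sall2, -0.12 for Fgf5 with Foxd3 and 0.01 for Otx2 with Foxd3. Of 12087 genes, those most like each member over the 10 libraries were Pgm2l1 for Otx2 (r = 0.94), Eomes for Pou3f1 (0.94), Calcr for Fgf5 (0.98), Spry2 and Tdgf1 for Foxd3 (both 0.99) and Igf1r for Sall2 (0.98). Others among the nearest were D7Ertd715e, Hnrnpa3 and Ppp1r2 for Otx2, Pim2, A830018L16Rik, Dnmt3b and Acsl6 for Pou3f1, and Pphln1, Kdsr, G2e3 and Enpp2 for Fgf5. For Foxd3 they were Utf1, Ctbp2 and Plekhb1, and for Sall2 they included Mcoln3, Tpbg and C530008M17Rik. Foxd3 thus ran closest to Spry2, Tdgf1 and Utf1, which are themselves high in pluripotent cells, and Pou3f1 to the primitive streak factor Eomes and to Pim2 and Dnmt3b of the primed list.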

How the data were processed

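PolyA RNA of R1 ES cells and EBs with shSmyd5 or shLuc was sequenced at 5 stages, 1 library each. Per the labels and the paper's methods, the authors used CASAVA and Bowtie2 and the genome mm9; their versions are not given in the sources used here. For each RefSeq transcript the deposited tables give a whole read count and an RPKM. In 100% of values over 200 reads the RPKM lay within 1% of that computed from count, length and library size. Double-stranded cDNA was ligated to adapters, so reads carry no strand. The transcript with the highest mean read count stood for each gene.

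The members and lists were chosen with earlier results of these data known. Named genes were the 5 members, Smyd5, the 5 genes most correlated with each member, and listed genes at least 2-fold apart or called. edgeR quasi-likelihood tests (TMM, mean RPKM over the libraries of 1 or more, Benjamini-Hochberg adjusted p of 0.05) used stage and shRNA as terms; the 2 libraries of a stage, or the 5 stages, stood in for replicates, and nothing says that they came from separate cultures. No p was computed for a single stage. GC content came from GENCODE M1 transcripts (20234 genes), and promoters from RefSeq. The trend used splines with 5 degrees of freedom. Alternatives changed the pseudocount (1, 0.01), RPKM filter, fold, scaling, test, block and stages. The tests were tested on simulated data. At a biological coefficient of variation of 0.33 the shared test found 40% of 2-fold and 99% of 4-fold effects among 12277 genes. The simulated effects were equal at all 5 stages and held no GC trend. These shares therefore do not apply to effects that change with the stage, as those of several members do. Tools were edgeR 4.0.16, DESeq2 1.42.0 and limma 3.58.1 in R 4.3.3, and pandas 2.3.3, scipy 1.17.1, numpy 2.4.6 and matplotlib 3.10.9 in Python 3.11.15. A few genes that the naming rule covers are not reported here. ChIP-Seq data were not analysed here.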

Additional observations from a re-analysis of the deposited data

Results flagged for a closer look

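Otx2 had opposite signs at different stages, with log2 folds (shSmyd5 over shLuc) of 0.88 in ES cells and 0.89 at 24 h and of -1.53, -1.41 and -1.37 at days 6, 10 and 14, each with a counting interval that left out 0. Pou3f1 had -1.25 in ES cells, 1.19 at 24 h and -0.49 at day 6, and Foxd3 -1.33, 1.03 and -0.57 at the same stages. Freed of the trend on GC content and length, Pou3f1 had -0.23 in ES cells, 0.44 at 24 h and -0.29 at day 6. Foxd3 had -0.15, 0.21 and -0.42, so all were under 2-fold. Relative to the median of all genes instead, the day 6 folds were -0.22 for Pou3f1 and -0.30 for Foxd3. With 1 library per shRNA and stage, the difference between stages was not tested.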

How the results depend on the processing

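Of 130 values of the members' folds under another pseudocount, scaling, trend correction or transcript, 125 kept their sign and 5 did not, all of these for folds of Pou3f1, Fgf5 or Foxd3 under 2-fold. At 1.5-fold 1 member (Otx2) was higher in ES cells. Freed of the GC and length trend, a correction of the counts added after the data were seen, 0 members were lower in ES cells and 0 higher at 24 h. Over all genes, 269 were lower in ES cells and 557 higher at 24 h under that correction. Genes at least 2-fold apart numbered 3059, 4467, 5419, 2665 and 2277 from ES cells to day 14 with no RPKM filter, 3990, 3349, 5043, 2801 and 2322 at 1.5-fold, and 2386, 1608 and 1241 at 24 h, day 10 and day 14 with an RPKM of at least 1. In the main setting, 2-fold and an RPKM of at least 3, they numbered 1473, 1443, 2608, 1022 and 758. In that setting the share that was higher was 75.3% at 24 h (62.7% relative to the median of all genes), 29.7% at day 6 (52.6% relative to the median, 45.3% with TMM) and 32.6% at day 10 (46.0% with TMM, 46.8% freed of the trend).

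The shared knockdown effect was called for 333 genes with DESeq2, 163 with no RPKM filter, and 0 to 6 when a stage was left out (leave-one-out; 6 without ES cells and 1 without day 10). With no stage block it was called for 0 genes, with 147 at an unadjusted p under 0.05. No member was called in any of these. Otx2 passed between 24 h and day 6 with DESeq2 (1.36) and with no filter (1.43), and between day 6 and day 10 with DESeq2 (-1.74) and with no filter (-1.81). Foxd3 between 24 h and day 6 did not pass with limma (-1.32). Genes called between days 10 and 14 numbered 120 with DESeq2, 39 with limma, 121 with no filter and 18 with library size alone. The cause of these shifts was not tested. The stage block pairs the shSmyd5 and shLuc libraries of each stage, and no other pairing was possible because the labels give 1 library per condition. Depth limits Fgf5 in ES cells and Foxd3 at days 10 and 14, with 20 reads or fewer per library.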
